A study of Homo sapiens with 17 samples.

Results

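The comparison set non-malignant HPr1AR cells against LNCaP prostate cancer cells in their N6-methyladenosine (m6A) pull-down tables. Its members were the genes that the authors' tables name in a listed region, by an exon or intron mark, in HPr1AR, in LNCaP or in both. There were 16403 such genes, of 16876 listed in any of the 3 tables of the series, together with 139373 regions of HPr1AR and 110260 regions of LNCaP. Both lines were labelled WT and vehicle-treated, with 3 samples pulled down by an m6A antibody and 3 by immunoglobulin G (IgG) in each line, grown as biological triplicates. HPr1AR is an immortalised line of normal human prostate epithelium, and LNCaP, derived from a lymph node metastasis of prostate cancer, responds to androgen. HPr1AR was kept in serum-free keratinocyte medium and LNCaP in RPMI-1640 with serum, so line and medium cannot be told apart. The deposited tables hold 1 value per region and line and none per sample, so no spread between samples could be given for any result.

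m6A is a methyl mark that the METTL3-METTL14 complex writes on adenosines of messenger and non-coding RNA, mostly near stop codons and in long exons, and that YTH-domain proteins read. An m6A pull-down can recover an RNA only where the cell makes it, so a list of pulled-down regions follows both the mark and the set of transcripts. Prostate epithelium has a secretory luminal layer, which depends on androgen and makes prostate-specific antigen, and a basal layer, which rests on laminin and collagen and expresses TP63 and basal keratins.

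A listed region is a run of neighbouring 20 bp windows, spaced by 10 bp, that passed the authors' filter, with 1 representative window that carries the deposited log2 fold and p-value. Whole reads of that window could be rebuilt from these values for 100% of the 130760 HPr1AR regions and 99.972% of the 103523 LNCaP regions with a p-value above 0. Reads and read ratios given below for a region or a pair are those of representative windows alone. They do not describe the whole region or gene. The fitted depth over both pull-downs was 16.8 M reads in HPr1AR and 12.8 M in LNCaP. The headers do not name the numerator, which was taken to be the m6A pull-down. Being listed was not the same as being enriched over IgG. Of 1313 genes listed in HPr1AR only with rebuilt reads in their leading exon region (the one with the most windows), 81.3% had an m6A to IgG read ratio whose 95% exact binomial interval lay above 1, beside 76.9% of 8211 genes listed in both. In LNCaP these shares were 75.9% of 826 and 75.6% of 8836. A gene absent from 1 table is therefore described as not listed there, which does not show that its RNA lacked m6A or was not made. In bulk samples such as these, fewer cells that make an RNA and less of it per cell cannot be told apart.

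The cell type markers separated the lines. All 9 basal markers were listed in HPr1AR, with 12116 exon windows (windows in regions marked as exon), while LAMB3 alone was listed in LNCaP, with 13 exon windows. All 10 luminal markers were listed in LNCaP, with 11079 exon windows, beside 5 in HPr1AR with 1685. Those 5 included the factor HOXB13 and the keratins KRT8 and KRT18, whereas KLK3, KLK2, ACP3, FOLH1 and TMPRSS2 were not listed there. Of the markers of other cell types, 2 of 6 neuroendocrine, 3 of 7 stromal, 2 of 5 immune and 1 of 4 endothelial genes were listed in HPr1AR, and 1, 3, 2 and 1 in LNCaP. PTPRC, CD3E, PECAM1, CDH5, DCN and LUM were listed in neither line.

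Most genes were listed in both lines: 13498 genes, or 82.3%. In HPr1AR only were 1815 genes (11.1%), and in LNCaP only 1090 (6.65%). These 2 shares over all genes are the background for every count of list members below, and since the members were named with earlier results of these data known, the counts carry no test. Genes of 1 line were thinly covered, with a median of 2 regions against 5 in HPr1AR for genes of both lines, and 41.7% of the HPr1AR-only and 43.3% of the LNCaP-only genes had a single region. A region at or above 0.782 reads per M reads (the higher of the 95th percentiles of single-window regions in the tables) was held by 1073 of the HPr1AR-only and 723 of the LNCaP-only genes. HPr1AR was sequenced more deeply and its list is longer. With both lists set to the same number of regions, those with the highest deposited fold, HPr1AR-only genes numbered 1775 and LNCaP-only genes 1546. That choice also dropped well covered genes such as KRT5 and KRT17 from HPr1AR, so it does not correct for depth alone.

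**Figure D1:**
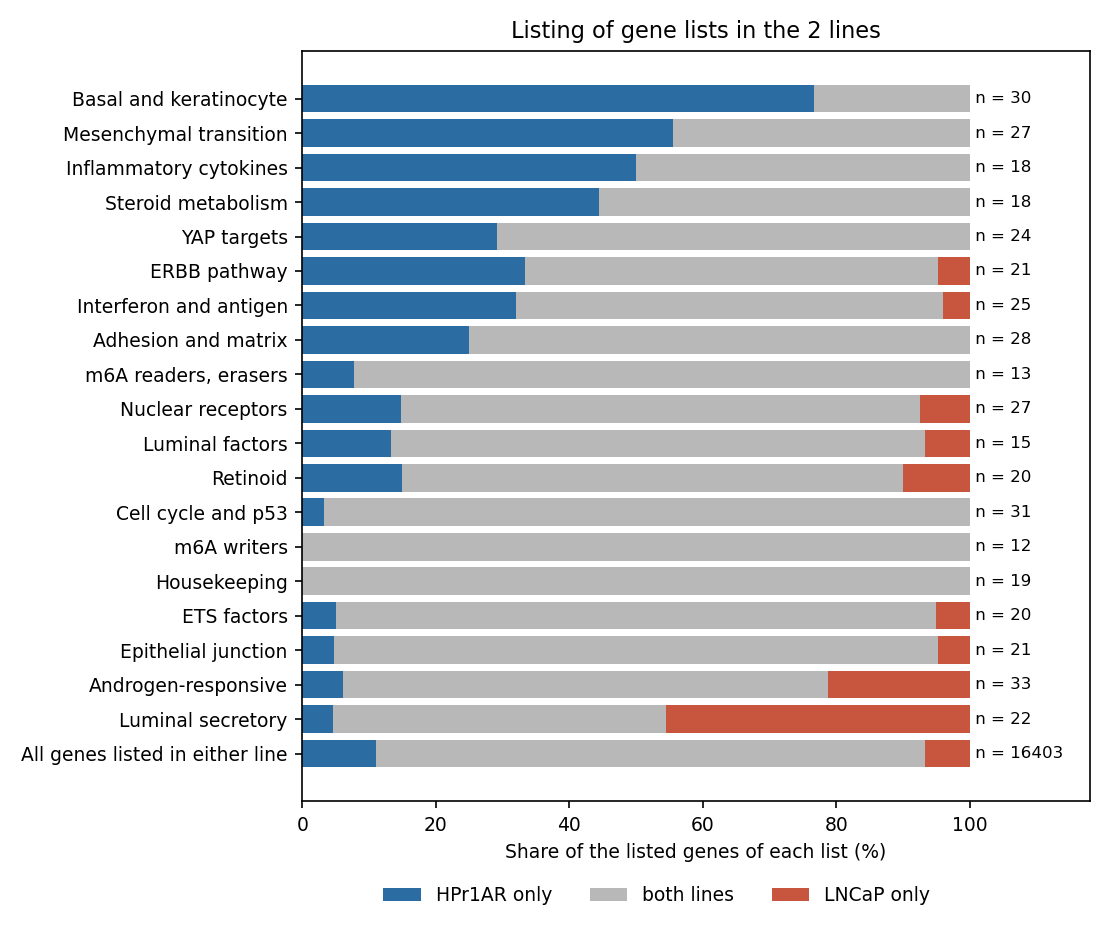
Share of the listed genes of each fixed list (x axis, percent) that were listed in HPr1AR only (blue), in both lines (grey) or in LNCaP only (red), with the number of listed genes at the right and all genes in the bottom bar. The basal list has 76.7% of its genes in HPr1AR only and the luminal secretory list 45.5% in LNCaP only, against 11.1% and 6.65% of all genes.

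Basal and keratinocyte genes formed the largest block on the HPr1AR side. Of 30 listed members, 23 were listed in HPr1AR only, 7 in both and 0 in LNCaP only, and the median number of exon windows was 449.5 in HPr1AR and 0 in LNCaP. The basal keratins KRT5 and KRT14, which pair into the filaments of basal cells, had 607 and 340 exon windows. The leading KRT5 region, at chr12:52908361-52911430 in the coordinates of the tables, whose build is not settled, held at least 77 m6A and 144 IgG reads in its representative window. TP63, the transcription factor that maintains the basal layer, had 661 exon windows. Its leading exon region (chr3:189611981-189614820) held 63 m6A and 40 IgG reads, a log2 ratio of 1.85 (95% interval 1.25 to 2.46). The desmosomal cadherins DSG3 and DSC3 had 846 and 1055 exon windows, and BNC1, a basal cell factor, had 1150. None of these 6 genes was listed in LNCaP or in 22Rv1. The 7 members of both lines were not equal in all cases: KRT80 had 1607 exon windows in HPr1AR and 13 in LNCaP, and SERPINB5 713 and 30, while DSC2 had 644 and 706 and SOX15 448 and 451. LY6D was listed in neither.

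Genes that hold basal cells to their matrix followed. Of 28 adhesion and matrix genes, all listed, 7 were listed in HPr1AR only and 0 in LNCaP only. COL17A1, the hemidesmosomal collagen, had 3839 exon windows, and ITGB4, the integrin beta chain of hemidesmosomes, 2373. The leading ITGB4 region (chr17:73747991-73751490) held 53 m6A and 24 IgG reads, a log2 ratio of 2.33 (1.61 to 3.09). That of COL17A1 (chr10:105799971-105804620) held 17 m6A and 36 IgG reads, a log2 ratio of 0.11 (-0.82 to 0.98), an interval that holds 0. The laminin-332 beta chain gene LAMB3 had 2883 exon windows in HPr1AR and 13 in LNCaP, and DST, which anchors keratin at hemidesmosomes, 4908 and 386. COL7A1, the anchoring fibril collagen, went the other way, with 8 in HPr1AR and 679 in LNCaP. Members with a general role in adhesion were closer: ITGB1 had 659 and 566 exon windows and LAMC1 1484 and 1447.

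**Figure D2:**
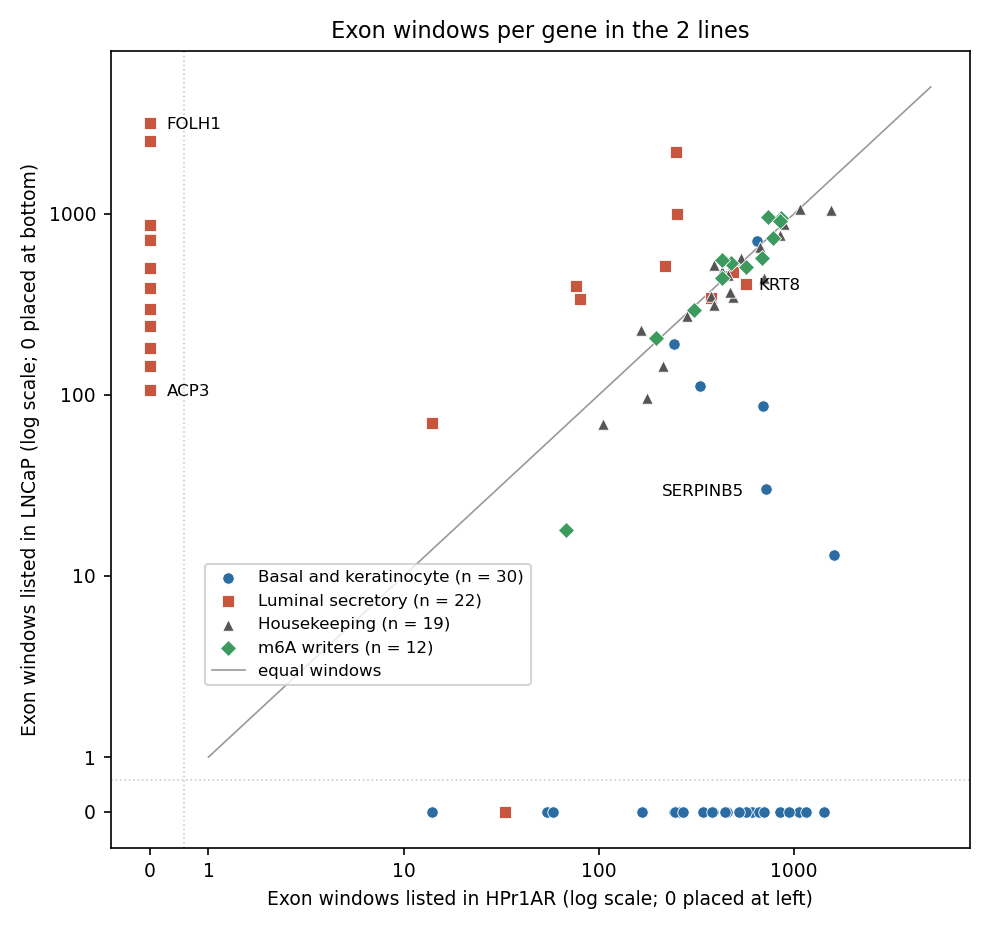
Exon windows listed per gene in HPr1AR (x axis) and LNCaP (y axis), both on log scales with 0 placed at the edge, for basal and keratinocyte (circles), luminal secretory (squares), housekeeping (triangles) and m6A writer genes (diamonds). Most writers and housekeeping genes lie near the line of equal windows, with ZCCHC4 (68 and 18) below it, 23 basal genes lie at 0 on the LNCaP axis and luminal genes such as FOLH1, with 3174 LNCaP windows, lie at 0 on the HPr1AR axis.

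Genes linked to a mesenchymal state, to YAP and to growth factor signals were also listed more often in HPr1AR alone. Of 27 listed mesenchymal transition genes, 15 were HPr1AR-only and 0 LNCaP-only. They included TGFBI, a matrix protein induced by TGF-beta (1776 exon windows), the receptor kinase AXL (923), ANXA1 (934) and the caveolae protein CAV1 (707). The cadherin CDH2 had 80 exon windows in HPr1AR and 269 in 22Rv1, and no region at the shared read rate in HPr1AR. VIM, the mesenchymal filament gene, was listed in both lines, with 367 and 76 exon windows, and SPARC, S100A4 and MMP2 in neither. Of 24 YAP targets and partners, 7 were HPr1AR-only and 0 LNCaP-only. Of these 7, AXL and TGFB2 are also among the 15 mesenchymal transition genes. CCN2 had 316 exon windows and F3, tissue factor, 1445. Among the members of both lines, YAP1 had 814 and 526, and its paralog WWTR1 400 and 4. Of 21 listed ERBB pathway genes, 7 were HPr1AR-only, among them the ligand genes EREG (752 exon windows), NRG1 (323) and AREG (45), and MET, the receptor of hepatocyte growth factor (1051). EGF itself was the 1 LNCaP-only member, with 53. The receptor EGFR had 3567 exon windows in HPr1AR and 1552 in LNCaP, whereas ERBB3 had 539 and 1203.

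Inflammatory and interferon genes showed the same side. Of 18 listed cytokine genes, 9 were HPr1AR-only and 0 LNCaP-only. IL1A had 970 exon windows, IL1B 622 and the neutrophil chemokine CXCL8 256, whose leading region (chr4:74606291-74608750) held 24 m6A and 19 IgG reads, a log2 ratio of 1.53 (0.60 to 2.48). Of 25 listed interferon and antigen presentation genes, 8 were HPr1AR-only and 1 LNCaP-only (IFITM2, 36 exon windows), or 4 with equal list lengths. The antiviral genes OAS1, OAS2 and IFI27 had 506, 617 and 476 exon windows. MX1, also antiviral, was listed in both, with 1017 and 110. The HLA genes cannot be read in this way. Of 140 protein-coding genes between HLA-F and TAPBP in the RefSeq order of chromosome 6, 5 were listed in HPr1AR and 0 in LNCaP, against 68.8% and 63.6% of the 909 others on that chromosome. Those listed included HLA-B and BRD2. TUBB, TAP1, PSMB8, RXRB and PRRC2A of that stretch were listed in neither line. HLA genes also share near-identical sequence, so their listing is uncertain.

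On the LNCaP side stood the secretory genes of the luminal layer. Of 22 listed luminal secretory genes, 10 were listed in LNCaP only, 1 in HPr1AR only (STEAP4, with 33 exon windows and no region at the shared read rate) and 11 in both. FOLH1, which encodes prostate-specific membrane antigen, had 3174 exon windows in LNCaP and 315 in 22Rv1. TMPRSS2, an androgen-induced serine protease, had 2530 and 56. The leading FOLH1 region (chr11:49203971-49208200) held 23 m6A and 58 IgG reads in its representative window, a log2 ratio of -0.16 (-0.92 to 0.56). That of TMPRSS2 (chr21:42869071-42873210) held 15 and 18 in its window, a ratio of 0.92 (-0.18 to 1.99). Neither interval lay above 0. For FOLH1, 3 pairs of whole reads met the rebuilding rule and the nearest is given. ACP3, prostatic acid phosphatase, had 106 exon windows, and its leading region (chr3:132086541-132087210) held 24 m6A and 4 IgG reads, a log2 ratio of 3.76 (2.22 to 5.75). MSMB, TGM4 and NPY were listed in neither line.

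The listed genes of the kallikrein cluster of chromosome 19 divided between the lines. KLK3, which encodes prostate-specific antigen, KLK2, KLK4, KLK15 and the pseudogene KLKP1 were listed in LNCaP and 22Rv1 and not in HPr1AR. KLK3 had 722 exon windows in LNCaP and 261 in 22Rv1, KLK2 717 and 300, and KLK4 389 and 284. The leading KLK3 region (chr19:51361481-51365300) held at least 80 m6A and 166 IgG reads. The next listed genes along the cluster, KLK5, KLK7, KLK8, KLK9 and KLK10, proteases known from stratified epithelium, were listed in HPr1AR and in neither cancer line. No other numbered kallikrein gene, KLK6 among them, was listed in HPr1AR or LNCaP. KLK7 had 192 exon windows and KLK10 223. KLK8 and KLK9 share 1 region of 47 windows, so they cannot be told apart. KLK3 and KLK2 are close paralogs, and reads that fit both could be split or lost.

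**Figure D3:**
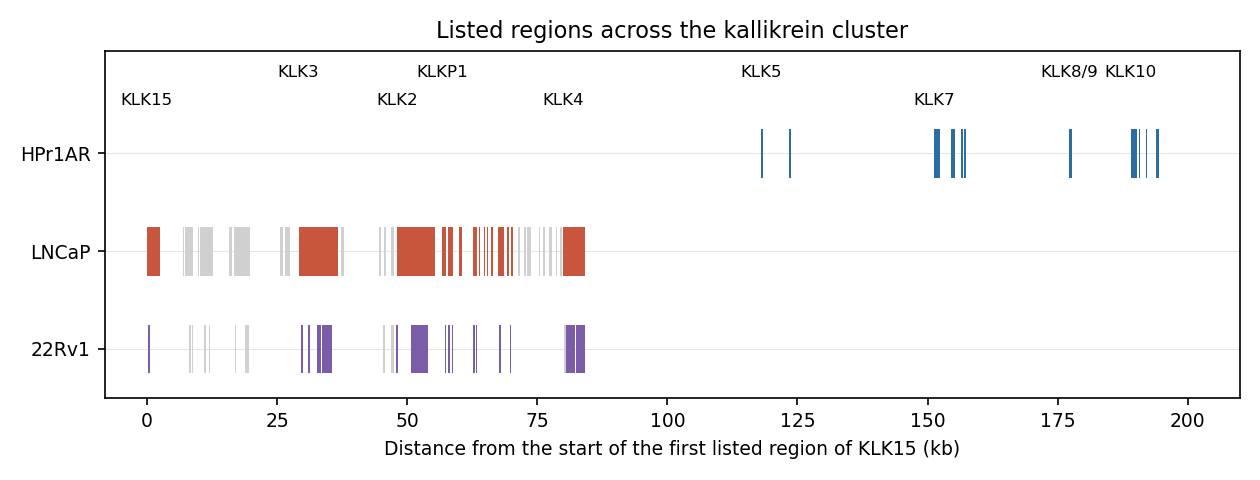
Listed regions across the kallikrein cluster in HPr1AR, LNCaP and 22Rv1 (rows), by distance in kb from the first listed region of KLK15; coloured bars carry an exon or intron mark of a kallikrein gene and grey bars do not. Kallikrein bars of LNCaP and 22Rv1 fill the left part, KLK15 to KLK4, and those of HPr1AR the right part, KLK5 to KLK10.

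The start sites of KLK3 and KLK2 are shown because these neighbours were listed together in LNCaP and share an androgen response element. The 250 bases before each start, on the plus strand, come from RefSeq (GRCh38.p14, chr19:50854665-50854914 for KLK3 and chr19:50873189-50873438 for KLK2). Capitals mark the stretch GAACAGCAAGTGCT, the run of letters around GAACA that both hold.
KLK3: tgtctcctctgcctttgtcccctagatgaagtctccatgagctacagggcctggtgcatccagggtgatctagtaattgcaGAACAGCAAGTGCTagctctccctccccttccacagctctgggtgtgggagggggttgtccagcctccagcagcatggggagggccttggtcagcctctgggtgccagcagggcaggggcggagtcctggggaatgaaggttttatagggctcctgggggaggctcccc
KLK2: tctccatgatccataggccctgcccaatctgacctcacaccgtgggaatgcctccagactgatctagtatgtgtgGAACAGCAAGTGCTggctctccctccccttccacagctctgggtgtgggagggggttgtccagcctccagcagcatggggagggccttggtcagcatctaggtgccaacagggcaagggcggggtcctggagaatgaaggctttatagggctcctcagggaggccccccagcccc
The stretch begins 169 bases before the KLK3 start and 175 before the KLK2 start. It was taken from these 2 promoters, so its match in both was fixed in advance and gives no background rate. On both strands it was found in 2 of 35116 promoter windows of 300 bases (0.0057%), those of KLK3 and KLK2. The half-site AGAACA, which overlaps it in KLK3, was found on either strand in 14.8% of all windows, in 1 of 4 windows of LNCaP-only kallikreins (KLK3) and in 0 of 4 of HPr1AR-only ones. A match describes letters and no binding, which was not measured.

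Androgen-responsive genes as a whole were mostly listed in both lines. Of 33 listed, 24 were in both, beside 82.3% of all genes. In LNCaP only were 7 (21.2%) and in HPr1AR only 2 (DHRS9 and EAF2). NNMT, which methylates nicotinamide, had 845 exon windows in LNCaP, the scaffold gene PPFIA2 1677 and the potassium channel gene KCNN2 659. FKBP5, a co-chaperone of steroid receptors, had 545 exon windows in HPr1AR and 518 in LNCaP, and PMEPA1 1226 and 1310. ZBTB16, in contrast, had 36 and 1858, ABCC4 102 and 1038, and SORD, sorbitol dehydrogenase, 101 and 533. Of 15 listed factors that set luminal identity, 12 were in both lines, near the 82.3% of all genes. In LNCaP only was 1 and in HPr1AR only were 2, also near the shares over all genes. HOXB13 had 109 exon windows in HPr1AR and 520 in LNCaP, and FOXA1 495 and 829. SPDEF was listed in LNCaP only, with 557. GATA3 was listed in HPr1AR only, with 79, and had 628 in 22Rv1. MYB, the other HPr1AR-only factor, had 31 in HPr1AR and 18 in 22Rv1, and no region at the shared read rate in HPr1AR.

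Of 18 listed steroid metabolism genes, 8 were HPr1AR-only (44.4%) and 0 LNCaP-only. Counting exon regions that name a single gene, the HPr1AR-only count fell to 3. AKR1C1, AKR1C2 and AKR1C3 are near-identical copies, with 91, 30 and 3 exon windows, and the leading AKR1C1 region held 2 m6A and 8 IgG reads. HSD17B3 and STAR had intron regions alone. Of 20 listed retinoid genes 3 were HPr1AR-only and 2 LNCaP-only, and of 27 listed nuclear receptor genes 4 and 2, near the shares over all genes; with a region at the shared read rate asked for, the latter were 2 and 1. The retinoic acid receptor genes RARA and RARG were listed in both lines, RARG with 573 exon windows in HPr1AR and 192 in LNCaP. RARB was LNCaP-only, with 91, and its leading region (chr3:25637951-25638490) held 21 m6A and 0 IgG reads. CYP26B1, which degrades retinoic acid, LRAT, which esterifies retinol, and CRABP2, a retinoic acid carrier, were HPr1AR-only, with 409, 135 and 163. ALDH1A3, which makes retinoic acid, had 2837 and 288. The glucocorticoid receptor gene NR3C1 had 799 exon windows in HPr1AR and 0 in LNCaP, where it had 1 intron region, below the shared read rate.

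Of the m6A machinery, all 12 writer genes were listed in both lines, as were 82.3% of all genes, with median exon windows of 521 in HPr1AR and 542.5 in LNCaP. METTL3 had 475 and 533, METTL14 195 and 205, and WTAP 567 and 505. Of 13 listed readers and erasers, 12 were in both, the demethylase genes FTO (269 and 246) and ALKBH5 (395 and 401) included. IGF2BP2, which binds methylated mRNA and stabilises it, was the 1 exception, with 1512 exon windows in HPr1AR, 0 in LNCaP and 159 in 22Rv1. Its paralog IGF2BP3 had 880 and 200, a difference of over 4-fold. Of the other lists, 19 of 19 listed housekeeping genes, 30 of 31 cell cycle and p53 genes and 19 of 21 epithelial junction genes were in both. With equal list lengths 5 housekeeping genes became LNCaP-only. CCND2 was HPr1AR-only, with 1027 exon windows, while CDK6 had 1304 and 77 and CDH1, E-cadherin, 758 and 731. Of 20 listed ETS factors 18 were in both, and the counts of 1 line only, 1 in each direction, reached 4 in each under the alternatives; ETV1, whose locus is rearranged in LNCaP, had 33 and 817, and ETS1 775 and 6. Of 7 listed neuroendocrine markers 4 were HPr1AR-only, CHGB with 173 exon windows, SOX2 with 183, CHGA with 32 and SCG2 with 26. CHGA and SCG2 had no region at the shared read rate, which leaves 2. NCAM1 was LNCaP-only, with 18, and DLL3 had 3 in HPr1AR and 77 in LNCaP.

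Over all 12976 genes with exon regions in both lines, the median log2 ratio of exon windows, HPr1AR over LNCaP, was 0.06. A difference of 4-fold or more was seen in 783 genes towards HPr1AR (6.03%) and in 571 towards LNCaP (4.4%). The number of windows moves with the depth of a table, which was higher in HPr1AR, and that part in single genes was not tested.

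The 10 HPr1AR-only genes with the most exon windows included HMGA2, COL17A1, ANXA2, ITGB4, XDH, SPTBN1, UPP1, CD44 and TGFBI. HMGA2, a chromatin protein of fetal and tumour cells, led with 4012, and its leading region (chr12:66259731-66264350) held 45 m6A and 47 IgG reads, a log2 ratio of 1.13 (0.50 to 1.75). XDH, xanthine dehydrogenase, had 2055 exon windows, with at least 61 m6A and 6 IgG reads in the leading region. Of the 8 genes with rebuilt reads, 5 had an interval above 0. The corresponding LNCaP-only genes were FOLH1, TMPRSS2, TRPM2, GRIN1, PRUNE2, PPFIA2, COL5A1, MIR99AHG, ATP4B and CACNA1H. TRPM2 and CACNA1H encode cation channels and GRIN1 an NMDA receptor subunit. COL5A1, a fibrillar collagen, had 30 m6A and 4 IgG reads in its leading region (chr9:137710591-137714260), a log2 ratio of 4.09 (2.58 to 6.05). SPTBN1 had 810 exon windows in 22Rv1 and CD44 115.

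Genes of 1 line lay partly side by side. Runs of 4 or more consecutive listed genes of the same class held 200 of 1815 HPr1AR-only genes, in 34 runs, and 70 of 1081 LNCaP-only genes placed in order, in 14 runs. The longest HPr1AR run, 17 genes on chromosome 1, spans the epidermal differentiation cluster with IVL, involucrin, SPRR genes of the cornified envelope and S100A genes, and 1 of the 17 was listed in 22Rv1. Further HPr1AR runs were a run of mostly pregnancy-specific glycoprotein (PSG) genes of chromosome 19 (14 genes), the HOXD cluster of chromosome 2 (11), keratin and keratin-associated genes of chromosome 17 (11) and chromosome 12 (10), the GBP genes of chromosome 1 (7) and the SERPINB genes of chromosome 18 (5). HOXD10 had 415 exon windows and HOXD13 277. The 9 UGT1A genes formed a run as well, but they share their last exons and count as 1 locus. The longest LNCaP run held 12 genes of the X chromosome, most of them cancer-testis antigen genes of the MAGEA and CSAG families, 7 listed in 22Rv1, and PEG3 and ZIM2, an imprinted pair on chromosome 19, were in another. PSG and MAGEA genes are near-identical copies, so the gene that made the reads is uncertain.

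MicroRNA genes were listed in 1 line more often than genes at large. Of 241, 53 (22.0%) were HPr1AR-only and 33 (13.7%) LNCaP-only, and 222 matched RefSeq by symbol. Long non-coding RNA genes stood at 20.5% and 13.4%. The regions were 2270 to 4470 bp wide for the genes printed here, so they cover primary transcripts and host genes, and mature microRNAs were not measured. The mature sequences are shown because they define the families involved; they are from RefSeq (GRCh38.p14), with the seed, bases 2 to 8, in capitals, and were chosen after the values were seen. In HPr1AR only were listed the genes of the following.
miR-205-5p: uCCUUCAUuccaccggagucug
miR-21-5p: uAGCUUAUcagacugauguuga
miR-31-5p: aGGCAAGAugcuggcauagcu
miR-221-3p: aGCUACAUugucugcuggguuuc
miR-222-3p: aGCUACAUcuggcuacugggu
miR-29a-3p: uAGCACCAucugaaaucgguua
MIR205, known from basal epithelium, and its host MIR205HG share 1 region of 396 exon windows (chr1:209602161-209606130) with at least 74 m6A and 113 IgG reads. MIR221 and MIR222, which share a seed, also share 1 region (chrX:45604751-45608350), with 22 m6A and 11 IgG reads, a log2 ratio of 2.19 (1.09 to 3.38). The MIR21 region (chr17:57915291-57919760) overlaps an exon of VMP1, which was listed in both lines, and held 47 and 86 reads, a ratio of 0.32 (-0.23 to 0.85). The MIR31 region (chr9:21510981-21513820) held 7 and 25, a ratio of -0.65 (-2.10 to 0.60), and the MIR29A region (chr7:130560961-130564510) 31 and 10, a ratio of 2.82 (1.76 to 4.02). None of these was listed in 22Rv1.

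In LNCaP only were listed the genes of the following microRNAs, of which the 3 let-7 members share a seed.
let-7a-5p: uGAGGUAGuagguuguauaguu
let-7b-5p: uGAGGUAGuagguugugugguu
let-7c-5p: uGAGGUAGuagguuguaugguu
miR-99a-5p: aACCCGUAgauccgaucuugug
miR-125b-5p: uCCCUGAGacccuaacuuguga
miR-141-3p: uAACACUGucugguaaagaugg
MIR99A, MIRLET7C and MIR125B2 lie in the host gene MIR99AHG on chromosome 21, which was itself LNCaP-only and among the 10 genes with the most exon windows. Their 3 regions held 5 to 7 m6A and 10 to 19 IgG reads, with log2 ratios of -0.50 (-2.30 to 1.01), -0.26 (-1.76 to 1.05) and 0.44 (-1.30 to 2.04), none above 0. MIRLET7A3 and MIRLET7B share a region on chromosome 22 (chr22:46507551-46509820) with 20 m6A and 19 IgG reads, a ratio of 1.25 (0.27 to 2.24). Its host MIRLET7BHG was listed in both lines, with 380 exon windows in HPr1AR and 2251 in LNCaP. MIR141 and MIR200C, an epithelial pair, share a LNCaP region (chr12:7071011-7073600) of 230 windows with 50 and 22 reads, a ratio of 2.36 (1.61 to 3.16). MIR200C was also listed in HPr1AR, with 51 windows, which did not reach MIR141.

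The third line of the series, 22Rv1, was not used to form the classes. It has 2 m6A and 3 IgG samples and a shorter list, of 77311 regions, which bears on each gene given as not listed there. Of the HPr1AR-only genes 28.9% were listed in 22Rv1, of the LNCaP-only genes 53.9% and of the genes of both lines 94.2%. Over genes with a region at the shared read rate these shares were 34.1%, 62.5% and 96.0%. By list, 2 of 23 HPr1AR-only basal genes (CDH3 and NGFR) and 8 of 10 LNCaP-only luminal secretory genes were listed in 22Rv1; TRPM8 and PCA3 were the other two. Of the 7 LNCaP-only androgen-responsive genes, 2 were listed in 22Rv1, KCNN2 with 83 exon windows and NNMT with 0.

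At the level of regions the lines shared less than at the level of genes. Of HPr1AR regions 50.5% overlapped a LNCaP region by 1 bp or more, and of LNCaP regions 65.2% overlapped one of HPr1AR. The regions covered 79.3 Mb in HPr1AR and 69.3 Mb in LNCaP, with 46.7 Mb in common. Exon regions overlapped more often, at 72.0% and 84.9%, than intron regions, at 27.6% and 44.5%. Overlap also went with width, from 19.3% of HPr1AR and 40.5% of LNCaP regions of up to 100 bp to 88.1% and 87.9% of the widest group, with median widths of 2590 and 2600 bp. Regions with no partner were narrow, with a median width of 130 bp in HPr1AR and 140 bp in LNCaP against 460 and 380 bp for those with one, and held a median of 9 and 8 reads against 18 and 14. Among regions at the shared read rate, 79.5% and 78.4% overlapped some region of the other line. Of the 13498 genes listed in both lines, 13368 had regions that overlapped each other.

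**Figure D4:**
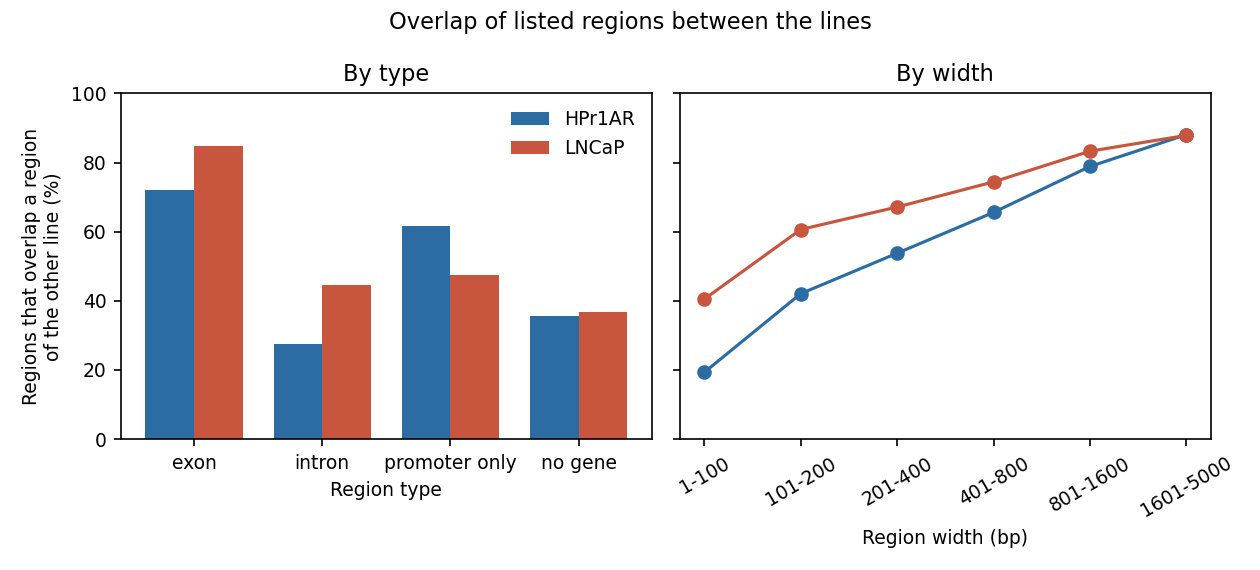
Share of regions (y axis, percent) that overlap a region of the other line by 1 bp or more, by region type (left) and by width in bp (right), in HPr1AR (blue) and LNCaP (red). Exon regions reach 72.0% and 84.9%, intron regions 27.6% and 44.5%, and the share climbs with width in both lines.

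Where regions overlapped, the m6A to IgG read ratio seldom differed by the test. In 56476 pairs of mutual largest overlap with rebuilt reads, an exact conditional test of the 4 read counts, two-sided, offset by the depths and adjusted by Benjamini-Hochberg at 0.05, called 80 pairs higher in HPr1AR (0.142%) and 100 higher in LNCaP (0.177%). With the median log2 difference of 0.21 over all pairs set to 0, the split was 58 and 139. Reads were few, with a median of 17 in HPr1AR and 13 in LNCaP per pair. In simulated pairs with a log2 difference of 4, 34.7% were called, and with one of 2, 5.5%, so pairs that were not called are not shown to be alike. The test compares 1 set of reads per line and has no replicate check, and which libraries entered each set is not stated. A pair need not compare the same stretch of an RNA. Where regions had no gaps and positions could be placed, the representative windows of a pair lay a median of 30 bp apart. In the 30 called pairs so placed they lay a median of 310 bp apart and overlapped in 3, and for the remaining called pairs they could not be placed. Restricted to the 7347 pairs with overlapping windows, 0 were called higher in HPr1AR and 1 in LNCaP (over H4C13, a histone gene), while at an unadjusted p under 0.05 there were 199 and 74.

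Among the pairs higher in HPr1AR, with some chromosomes left out, the genes with the smallest adjusted p included CDH1, G3BP1, DDX24, TKT and CCDC106. CDH1, the E-cadherin gene, held 39 m6A and 1 IgG reads in HPr1AR (chr16:68855651-68857570) and 30 and 54 in LNCaP (chr16:68855891-68857550), a log2 difference of 6.15 (95% exact interval 3.40 to 11.5, adjusted p = 6.16e-08 by the exact conditional test). In LNCaP 5 pairs of reads fit this region, with 29 to 37 m6A and 53 to 60 IgG reads. G3BP1, a stress granule protein gene, held 47 and 5 reads in HPr1AR and 20 and 47 in LNCaP, a difference of 4.48 (2.85 to 6.32, adjusted p = 1.72e-07 by the exact test). DDX24, an RNA helicase gene, held 57 and 4 against 14 and 25. TKT, transketolase, held 30 and 4 against 43 and 83. In all 5 the interval of the log2 ratio, corrected for depth, lay above 0 in HPr1AR and held 0 in LNCaP; for CDH1 the ratios were 6.48 (3.91 to 11.8) and 0.33 (-0.36 to 1.00).

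Among those higher in LNCaP the 6 genes named by the same rule were TRIP6, RRM2, RPS6KB2, EIF3A, JTB and PSMA2. TRIP6, which encodes a focal adhesion protein, held 29 m6A and 63 IgG reads in HPr1AR (chr7:100470081-100471120) and 57 and 2 in LNCaP (chr7:100469871-100471200), a log2 difference of -5.94 (-9.07 to -3.82, adjusted p = 2.87e-12 by the exact conditional test). RRM2, the small subunit of ribonucleotide reductase, held 27 and 58 against 48 and 2, a difference of -5.68 (-8.82 to -3.53, adjusted p = 3.76e-10 by the exact test). EIF3A, a translation initiation subunit gene, held 20 and 29 against 45 and 0, and PSMA2, a proteasome subunit gene, 16 and 45 against 22 and 0. In HPr1AR the interval of the ratio held 0 in 5 of the 6, all but JTB, and in LNCaP it lay above 0 in all 6. For PSMA2 the windows lay 260 bp apart, and for the other 10 named genes of both directions they could not be placed.

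**Figure D5:**
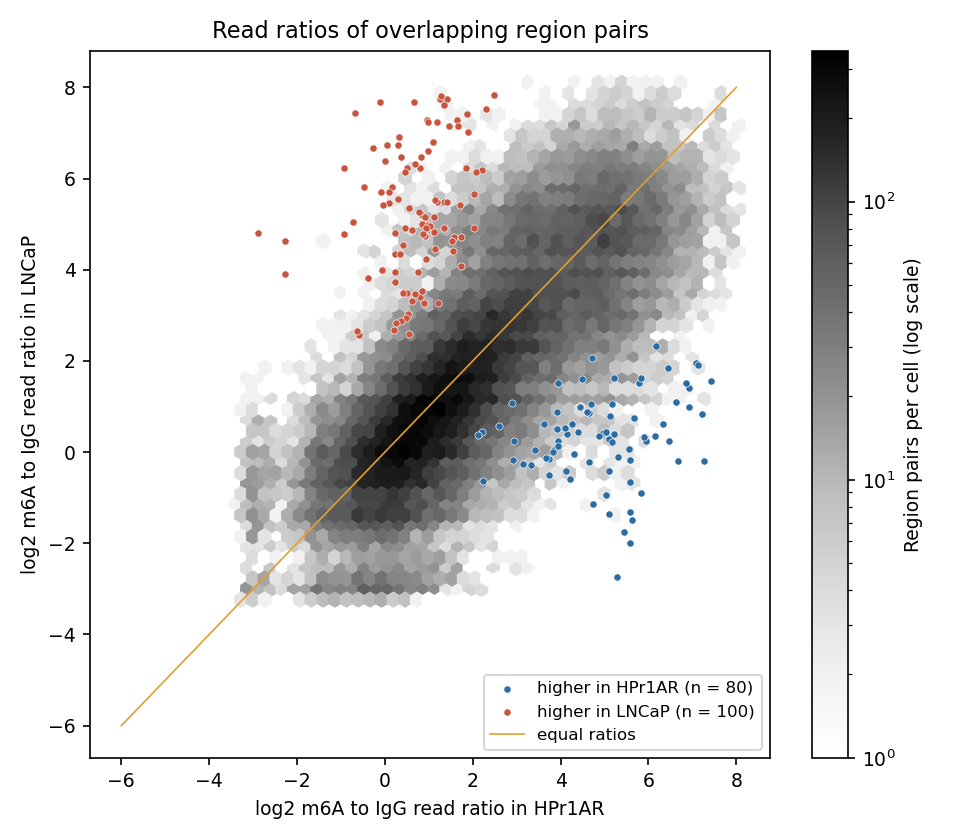
Log2 m6A to IgG read ratio of overlapping region pairs in HPr1AR (x axis) and LNCaP (y axis), with 0.5 reads added to each count; grey cells count pairs on a log scale and points are the called pairs. The 80 pairs higher in HPr1AR (blue) and the 100 higher in LNCaP (red) lie away from the line of equal ratios, on which most of the 56476 pairs centre.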

How the data were processed

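m6A and IgG pull-downs of HPr1AR and LNCaP were compared, with 3 samples each, sequenced at 50 bp per the labels' protocols. The authors deposited 1 table of regions per line, with a log2 fold, a p-value and an adjusted p-value per region, counts of windows, and overlapping genes, per the file headers. The sources used here do not give the aligner, the counter or the test. The submitters' processing notes name hg38, but leading regions lay inside the GRCh38.p14 span of their gene for 10.2% of genes in HPr1AR and 10.4% in LNCaP, so the build is not settled and coordinates are those in the files. Columns with values per sample numbered 0.

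The deposited log2 fold followed log2 of numerator reads minus 2 times log2 of reference reads, each with a prior, plus a constant. Constants were fitted on regions of 1 window (3744 in HPr1AR, 2634 in LNCaP), and whole reads that give fold and p-value were sought. More than 1 pair of reads met the rule in 277 and 6344 regions, and the nearest was taken. Where p was listed as 0 (8613 and 6737 regions) reads are lower bounds. After a random shift of the folds, reads were still found for 0.478% and 15.5%, so LNCaP reads are less certain. Depths rest on the fitted constants. The rebuilding was tested on simulated data, 6000 regions a line, and its reads were exact in 99.9% and 97.3%. Each simulated region held 1 window and followed the fitted formula. Listed regions held a median of 18 windows in HPr1AR and 21 in LNCaP, for which exactness was not tested. Intervals (95%, exact) cover counting error only. Python 3.11.15, numpy 2.4.6, pandas 2.3.3 and scipy 1.17.1 were used.

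Members and lists were chosen with earlier results of these data known. Named genes were the 10 of each line with the most exon windows and list members of 1 line. Among pairs they were the 6 genes per direction with the smallest adjusted p. LOC symbols were left out, and so were pairs on some chromosomes. Others, such as list members of both lines, neighbour runs and microRNAs, were chosen after their values were seen. Genes were matched by symbol. Some genes that this rule names are not reported here.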

Additional observations from a re-analysis of the deposited data

Results flagged for a closer look

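These pairs of overlapping regions differed in their m6A to IgG read ratio between the lines by the exact conditional test, as log2 differences, HPr1AR minus LNCaP. Higher in HPr1AR were CDH1 at 6.15, G3BP1 at 4.48, DDX24 at 4.68, TKT at 3.87 and CCDC106 at 5.05. Higher in LNCaP were TRIP6 at -5.94, RRM2 at -5.68 and RPS6KB2 at -5.57. EIF3A, JTB and PSMA2 had 0 IgG reads in LNCaP, and the upper ends of their 95% exact intervals were -3.82, -3.39 and -3.68. The values are not given per sample, and which libraries entered them is not stated. The representative windows lay 260 bp apart for PSMA2 and could not be placed for the others, so a difference along the RNA and one between the lines cannot be told apart.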

How the results depend on the processing

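No paired analysis was possible because the tables hold no value per sample; leaving out a replicate could not be run for the same reason. Limiting genes to a region at the shared read rate in their line, an alternative chosen after seeing the data, left 1073 HPr1AR-only and 723 LNCaP-only genes; the other alternatives stayed within 1.5 times, at 1562 to 1829 and 1015 to 1546. Of the 109 named HPr1AR-only genes 90 to 109 remained so across alternatives, and of the 37 LNCaP-only genes 33 to 37. The alternatives only removed regions, so none of these genes could become listed in both lines. With equal list lengths UPP1, KRT5, KRT17, S100A8, PLAU and F3 were no longer listed. The share of HPr1AR-only genes listed in 22Rv1 became 32.4% with exon types and regions of 1 gene, 44.2% with both tables held to the shared read rate and 34.1% with that rate asked in 1 line; for LNCaP-only genes it became 65.3% with equal list lengths, 70.0% and 62.5%. Overlapping regions became 30.7% in HPr1AR and 38.8% in LNCaP with a reciprocal overlap of 50%, 41.9% and 53.6% with at least 100 bp, 50.9% and 66.2% at an adjusted p under 0.05, 67.1% and 61.5% at the shared read rate, which puts HPr1AR above LNCaP, 53.3% and 54.5% with equal list lengths, and 79.5% and 78.4% with that rate in 1 line. Pairs called higher in HPr1AR and in LNCaP numbered 0 and 0 of the 5 pairs of the same window, 42 and 84 where 1 pair of reads met the rule, 35 and 57 with a reciprocal overlap of 50%, and 0 and 1 where representative windows overlap. The causes were not tested. Depth limits the pair test: 42.7% of pairs held under 10 reads in the thinner line.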

Other observations

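The tables also listed windows with 0 rebuilt reads in both pull-downs, 6 in HPr1AR and 17 in LNCaP. Regions with 0 numerator reads numbered 4911 and 5122, and these are the regions that did not pass the adjusted p threshold of 0.05. A count of 0 numerator reads was sought only at a large p-value, so this match is in part set by the rebuilding rule.

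In their leading exon regions, HPr1AR-only genes had a median log2 m6A to IgG read ratio, with 0.5 reads added, of 4.13, against 2.60 for genes of both lines. In LNCaP the medians were 4.20 and 2.89. Genes whose leading p was listed as 0, the best covered ones, are left out of these medians, and unequally: 269 of 1582 HPr1AR-only genes and 4938 of 13149 of both lines, and in LNCaP 130 of 956 and 4289 of 13128. The genes of 1 line held fewer reads there, with medians of 14 against 34 in HPr1AR and 13 against 31 in LNCaP. Over genes with 10 to 40 reads the medians were 4.13 against 2.63 in HPr1AR and 4.37 against 2.83 in LNCaP. Of 205 small nucleolar RNA genes, 6 (2.93%) were listed in HPr1AR only, beside 11.1% of all genes. In LNCaP only were 15 (7.32%), near the 6.65% of all genes. A run of 5 neighbouring SNORD116 genes on chromosome 15 was LNCaP-only.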
